A study of Homo sapiens with 9 samples.

Results

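The miR-548 family was followed through a miRNA trapping experiment (miTRAP) in ES-2 cells, an established ovarian cancer cell line. Its members were all names in the count table that begin with hsa-miR-548, and the loci of a name were summed. This rule took 81 of 2652 miRNA names, in 102 of 2883 locus rows. Of the 81 names, 49 had at least 1 read in any of the 9 libraries and 5 passed the filter on low counts that the tests required. The names held 7347 reads in all, and 714 of these belonged to members that were not tested.

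The 9 small RNA libraries fell into 3 groups of 3. All came from untreated wild-type ES-2 cells. The input was RNA taken from the lysate ahead of the trapping step. The MS2 control was RNA recovered on a bait made of MS2 loops, and the remaining group was RNA recovered on the PD-L1 3'UTR, the untranslated end of the mRNA for the immune checkpoint ligand PD-L1 (gene CD274), carried on the same kind of loops. In miTRAP the bait RNA is held on a resin through a protein that binds the MS2 loops, and miRNAs of the lysate that stay on the bait are washed, eluted and sequenced. Per the study's methods, a larger amount of the PD-L1 bait than of the MS2 bait was loaded, so bait sequence and bait amount cannot be told apart in a comparison of the trapped groups. The study states biological triplicates as the minimum for its experiments. No label ties replicates to separate cultures, so how far the spread between these libraries is technical is not known. The p-values measure that spread.

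miRNAs are short RNAs cut from a hairpin precursor. Either arm of the hairpin, 5p or 3p, can be loaded into an Argonaute protein, and bases 2 to 8, the seed, guide pairing with target RNAs. The miR-548 family is specific to primates and came from MADE1, a short transposable element with inverted repeats at its ends. A transcribed copy can fold back on itself into a hairpin, so copies scattered over the genome, often in introns, became miRNA genes with closely related arms. Many members are little expressed in most tissues.

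The sequences below are shown because their members carry most of the family's reads and because small differences between them separate the seeds. They are RefSeq mature sequences (GRCh38.p14, the build of the files per the labels), written 5′ to 3′ with the seed in capitals. The first 4 lines are alike over most of their length, as are the last 4.
miR-548k (chr11:70283986-70284007, plus strand): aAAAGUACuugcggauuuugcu
miR-548j-5p (chr22:26555274-26555295, minus strand): aAAAGUAAuugcggucuuuggu
miR-548l (chr11:94466545-94466566, minus strand): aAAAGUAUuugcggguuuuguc
miR-548n (chr7:34940804-34940825, minus strand): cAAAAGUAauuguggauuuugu
miR-548o-3p (chr7:102405748-102405769, minus strand, and chr20:38516607-38516628, plus strand): cCAAAACUgcaguuacuuuugc
miR-548am-3p (chrX:16627019-16627040, minus strand): cAAAAACUgcaguuacuuuugu
miR-548ar-3p (chr13:114244541-114244561, plus strand): uAAAACUGcaguuauuuuugc
miR-548u (chr6:57390180-57390202, plus strand): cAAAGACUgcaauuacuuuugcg

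RefSeq held a sequence for 55 of the 81 names, and these had 29 different seeds. miR-548e-3p and miR-548ao-3p were among the 26 names with none. The edit distance, the number of bases to change, insert or delete, was 4 between miR-548k and each of miR-548j-5p, miR-548l and miR-548n. It was 2 between miR-548o-3p and miR-548am-3p, 3 to miR-548ar-3p and 4 to miR-548u, against 10 between miR-548k and miR-548o-3p. The nearest member of all to miR-548o-3p was miR-548ah-3p at a distance of 1, which held 4 reads, so reads of the pair could be exchanged by a sequencing error or a mismatch. The median GC content of the family's mature sequences was 33.3%, against 52.2% for all 2370 mature names, and the median length was 22 bases for both.

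The reads fell on few seeds. The seed AAAGUAC, shared by 2 names and led by miR-548k, held 3235 reads, and the seed CAAAACU held 2777, all of miR-548o-3p. The most common seed of the family, AAAGUAA, belonged to 11 names, of which 8 had a read, but held few reads, 175 of them of miR-548j-5p. The 2 members with the most reads thus carried seeds that few others of the 55 names with a sequence shared. The seeds of miR-548e-3p and miR-548ao-3p were not known.

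Of 64 miR-548 hairpin genes in the GENCODE annotation (GRCh37), 49 lay inside another gene and 33 inside a protein-coding gene on its own strand, and these 33 were all intronic. MIR548K lay in an intron of PPFIA1, which encodes a liprin scaffold protein. MIR548E lay in SHOC2, MIR548J in TPST2, MIR548N in DPY19L1, MIR548L in MRE11 and MIR548AR in CDC16, each on the strand of the host gene. Of the genes for miR-548o-3p, MIR548O lay on the opposite strand of PRKRIP1 and MIR548O2 on the strand of RALGAPB, both in introns. The chromosome 20 locus held 1434 reads and the chromosome 7 locus 1343, which is 51.6% and 48.4% of the name. The loci gave the same mature sequence, so the split does not show which was transcribed.

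Library totals were 3794799 to 5983577 reads in the input, 1156261 to 2236535 in the MS2 control and 672824 to 1237652 on the PD-L1 3'UTR. The lysate should hold few miRNAs of other tissues, and markers of muscle, red cells, liver and lymphoid and myeloid cells were measured as a check. Epithelial markers, which are not taken as foreign to the lysate, were measured beside them. The summed level of 3 muscle markers was 1.19 to 3.16 RPM (reads per 1000000 reads of the library) in the input, 50.5 to 163.4 in the MS2 control and 31.7 to 2093 on the PD-L1 3'UTR. The 3 red cell markers ran from 2.57 to 3.69, from 39.4 to 111.1 and from 50.5 to 938.1, and the liver marker miR-122-5p from 1.17 to 2.57, from 45.8 to 58.8 and from 0 to 183.4. The 4 lymphoid and myeloid markers ran from 147.6 to 198.6, from 258.6 to 342.9 and from 520.4 to 784.6. The 5 epithelial markers ran from 30.8 to 41.7, from 63.0 to 97.4 and from 41.5 to 269.9, with miR-429 at 0 in every library. The highest value of all 5 lists was in PD-L1 3'UTR replicate 1, and the calls of the 5 tested members on that group are also given without it. Other values on that group include it unless stated. For the lymphoid and myeloid list, PD-L1 3'UTR replicate 2 followed at 601.9. The part of these markers in the results on miR-548 was not tested.

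The family as a whole was a small share of every library, and its make-up differed by group more than its sum. Family reads numbered 1533, 1114 and 1741 in the input, 418, 701 and 418 in the MS2 control and 510, 252 and 660 on the PD-L1 3'UTR. In RPM this was 295.7 ± 6.14 (SD, n = 3) in the input, 337.1 ± 24.1 in the MS2 control and 441.1 ± 84.9 on the PD-L1 3'UTR. On this scale the groups did not overlap, since the input reached 302.7 at most, the MS2 control ran from 313.4 to 361.5 and the PD-L1 3'UTR from 374.5 to 536.7. The place of the input depended on the scale. After TMM scaling, which fits the libraries to each other so that most miRNAs do not differ, the sums were 390.4 ± 13.9, 288.2 ± 24.7 and 392.7 ± 75.5 CPM (counts per 1000000 of the scaled library), with the MS2 control lowest and the PD-L1 3'UTR spanning the input. With DESeq2 size factors they were 377.0 ± 21.2, 292.0 ± 23.9 and 403.1 ± 91.3. Every PD-L1 3'UTR library lay above every MS2 control library on these 3 scales. No test was made of a sum over members.

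**Figure D1:**
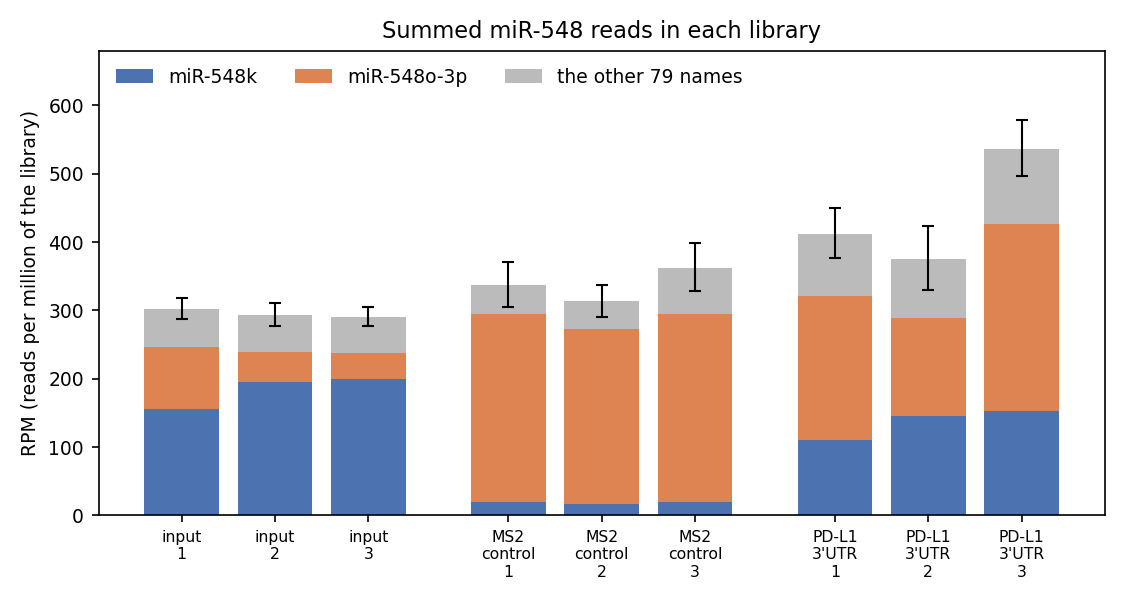
Summed miR-548 level in RPM (vertical axis) for the 9 libraries (horizontal axis), split into miR-548k, miR-548o-3p and all other names. Error bars are exact Poisson 95% intervals of the sum and cover counting error only. miR-548k makes up 51.5% to 68.7% of the family in the input and 5.14% to 5.98% in the MS2 control, where miR-548o-3p takes its place.

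miR-548k and miR-548o-3p together supplied most of the family, in opposite proportions. miR-548k was 62.3% ± 9.42 of family reads in the input, 5.46% ± 0.456 in the MS2 control and 31.4% ± 6.60 on the PD-L1 3'UTR (SD, n = 3). miR-548o-3p was 19.3% ± 9.24, 79.8% ± 3.22 and 46.8% ± 7.54. The remaining names made up 18.5% ± 0.273 in the input, 14.7% ± 3.41 in the MS2 control and 21.9% ± 1.21 on the PD-L1 3'UTR. The ratio of the leading names within a library is free of any scaling. There were 1.72, 4.53 and 5.22 reads of miR-548k per read of miR-548o-3p in the input, 0.0733, 0.0628 and 0.0692 in the MS2 control and 0.519, 1.02 and 0.559 on the PD-L1 3'UTR. The 3 groups did not overlap in this ratio.

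The number of members detected was highest in the input, which was sequenced deepest. In the input 32 to 34 members had a read per library, in the MS2 control 17 to 19 and on the PD-L1 3'UTR 15 to 25. At the depth of the shallowest library, 672824 reads, the expected number was 14.5 to 16.5 in the input, 13.5 to 14.7 in the MS2 control and 15 to 20.5 on the PD-L1 3'UTR. At equal depth the input overlapped each trapped group. The lowest PD-L1 3'UTR value, 15, was barely above the highest MS2 control value, 14.7. Over all miRNA names the expected number at that depth was 622.5 to 643.8 in the input. It was 638.7 to 698.7 in the MS2 control and 633 to 710.5 on the PD-L1 3'UTR, so there the trapped groups overlapped. Over its 3 libraries a group had 43, 26 and 33 members with a read, in the same order of groups. Across all libraries 60.5% of the members had a read, against 56.4% of the 2571 other names, while 6.17% of members and 15.7% of other names had counts high enough to be tested. Of the members, 32 had no read, 30 had 1 to 9 reads, 15 had 10 to 99 and 4 had 100 or more.

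Arms were compared for the names that state one. The 28 names ending in 5p held 224 reads, with reads on 13 names, and the 28 ending in 3p held 3429, with reads on 16. The 25 names with no arm held 3694 reads, of which 3233 were of miR-548k. Among reads with a named arm, the 5p share was 11.0% ± 3.85 in the input, 4.17% ± 2.74 in the MS2 control and 3.93% ± 1.02 on the PD-L1 3'UTR (SD, n = 3). Single libraries gave 6.58%, 12.6% and 13.7% in the input, 2.65%, 2.53% and 7.33% in the MS2 control and 4.09%, 4.86% and 2.84% on the PD-L1 3'UTR, so the input and the MS2 control overlapped. miR-548o-3p outweighed all others in this share: without it the 5p share was 27.7% ± 3.94, 32.7% ± 9.56 and 15.3% ± 1.95.

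The names with no arm changed this picture. miR-548k, miR-548l and miR-548n were closest in sequence to named 5p members, at edit distances of 3, 2 and 4, and miR-548u and miR-548bc to 3p members, at 2 and 3. With each such name given the arm of its nearest named member, the 5p share became 70.0% ± 10.1 in the input, 11.0% ± 1.98 in the MS2 control and 37.3% ± 7.02 on the PD-L1 3'UTR. The place of the mature sequence in the annotated hairpin, looked up after the data were seen, put 12 of the 25 names on the 5p arm and 5 on the 3p arm and gave 70.1% ± 10.2, 11.0% ± 1.96 and 37.5% ± 6.82. For 32 named arms the place could be read the same way, and 0 lay on the other arm. Within the family, 5p-type reads thus led in the input and 3p-type reads in both trapped groups, which restates the shares of miR-548k and miR-548o-3p.

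Hairpins with both arms named were read mostly from a preferred arm. Of 28 such pairs of names, 23 had reads and 6 had reads on both arms. The 3p arm held more reads in 14 pairs and the 5p arm in 8. miR-548o, miR-548e, miR-548ao and miR-548ar had 2777, 351, 97 and 53 reads on the 3p arm and 0 on the 5p arm. miR-548j was the best counted exception, with 175 reads on 5p and 7 on 3p.

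miR-548k, 1 of the 5 tested members, was the highest of the family in the input and, of these 5, the most depleted on the MS2 bait. Its level was 207.6, 250.5 and 269.4 TMM-scaled CPM in the input, 16.2, 14.3 and 16.6 in the MS2 control and 96.3, 131.5 and 136.4 on the PD-L1 3'UTR. The groups did not overlap, with the MS2 control lowest and the PD-L1 3'UTR between it and the input. It ranked 113th of 1313 miRNAs with reads in the input, 290th of 989 in the MS2 control and 152nd of 976 on the PD-L1 3'UTR. Counts are per mature name, and mature miRNAs are close enough in length for levels to be set side by side, with no correction for how well each sequence was ligated into a library.

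miR-548o-3p was lowest in the input and highest in the MS2 control. Its level was 120.5, 55.3 and 51.6 CPM in the input, 220.5, 227.2 and 240.6 in the MS2 control and 185.5, 128.8 and 243.8 on the PD-L1 3'UTR. All 6 trapped libraries were above all 3 input libraries, and the trapped groups overlapped. It ranked 169th in the input, 106th in the MS2 control and 135th on the PD-L1 3'UTR. miR-548ao-3p was also higher in all trapped libraries than in the input, at a far lower level, with 2.63, 1.69 and 3.83 CPM in the input, 8.40, 6.34 and 6.05 in the MS2 control and 9.20, 8.05 and 6.53 on the PD-L1 3'UTR. It rested on 97 reads in all, the fewest of the tested members, and miR-548n, with 92, was the first left out. In the input miR-548ao-3p had only 1.97, 1.32 and 2.84 RPM, so it passed the filter through trapped libraries alone. That favours a call above the input.

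miR-548e-3p was counted well on the PD-L1 bait and poorly on the MS2 bait. Its level was 24.2, 17.2 and 19.4 CPM in the input, 1.94, 4.76 and 9.84 in the MS2 control and 23.4, 25.5 and 30.5 on the PD-L1 3'UTR. The MS2 control lay below both other groups, which overlapped on this scale. In RPM the PD-L1 3'UTR, at 26.7, 28.2 and 34.1, lay above the input, at 18.2, 13.4 and 14.4. The MS2 values came from 3, 12 and 13 reads. miR-548j-5p, the only tested member with a named 5p arm, had 8.94, 8.09 and 11.3 CPM in the input, 6.46, 4.76 and 17.4 in the MS2 control and 7.08, 5.37 and 5.80 on the PD-L1 3'UTR. The MS2 control spanned both other groups through its replicate 3, while the PD-L1 3'UTR lay below the input on this scale. In RPM the PD-L1 3'UTR, at 8.08, 5.945 and 6.505, overlapped the input, at 6.71, 6.32 and 8.36.

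**Figure D2:**
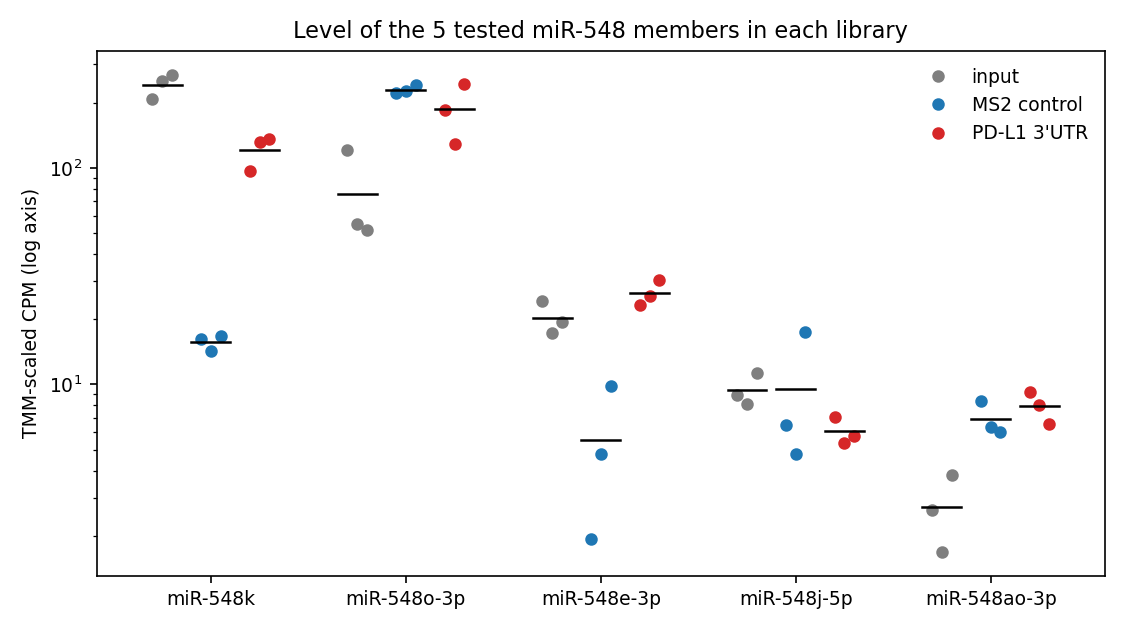
Level of the 5 tested members in each library, in TMM-scaled CPM on a log axis. Points are single libraries coloured by group and black lines are group means of 3. miR-548k and miR-548e-3p are lowest in the MS2 control, with means of 15.7 and 5.51, and miR-548o-3p and miR-548ao-3p are lowest in the input, with means of 75.8 and 2.71.

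Setting the trapped groups against each other compares retention on the PD-L1 bait with that on the MS2 bait. The baits differed in amount as well as in sequence. Of the 5 tested members, 2 were higher on the PD-L1 3'UTR and 0 lower. Over all 408 miRNAs tested, 31.4% were called higher and 28.7% lower by the same rule, edgeR's quasi-likelihood test with a Benjamini-Hochberg adjusted p under 0.05. miR-548k was higher by a log2 fold change of 2.95 ± 0.23 (SE, edgeR adjusted p = 1.09e-06), or 7.74-fold. miR-548e-3p was higher by 2.29 ± 0.47 (edgeR adjusted p = 0.00153), or 4.91-fold. With 2 of 5 against that background, the count of calls does not set the family apart. Without PD-L1 3'UTR replicate 1 these were 3.05 ± 0.25 and 2.34 ± 0.51, both past the threshold. miR-548o-3p differed by -0.30 ± 0.34, miR-548j-5p by -0.58 ± 0.55 and miR-548ao-3p by 0.19 ± 0.47, none past the threshold (edgeR adjusted p = 0.466, 0.387 and 0.743). For miR-548o-3p the interval of 2 SE either side ran from -0.97 to 0.37, and for miR-548ao-3p from -0.74 to 1.13.

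Against the input, the PD-L1 3'UTR was enriched for some members and depleted of miR-548k. miR-548o-3p was higher by 1.30 ± 0.34 (edgeR adjusted p = 0.00652) and miR-548ao-3p by 1.50 ± 0.47 (edgeR adjusted p = 0.0171). miR-548k was lower, by a log2 fold change of -1.0 ± 0.20 (edgeR adjusted p = 0.00138). Of the 5 members 2 were thus higher and 1 lower, beside 34.1% higher and 32.4% lower among all 408 tested. miR-548e-3p differed by 0.38 ± 0.41 and miR-548j-5p by -0.62 ± 0.53, neither past the threshold (edgeR adjusted p = 0.422 and 0.319). With library totals in place of TMM these were 0.95 ± 0.40 and -0.04 ± 0.53 (edgeR adjusted p = 0.0546 and 0.952). The call of miR-548k depended on scaling, since with library totals in place of TMM its log2 fold change was -0.43 ± 0.20 (edgeR adjusted p = 0.0819). That change of scale moved the median over the 408 tested miRNAs from 0.04 to 0.60, and relative to this median miR-548k lay as low as before. The call of miR-548ao-3p was lost without PD-L1 3'UTR replicate 1, at 1.27 ± 0.61 (edgeR adjusted p = 0.0900), and without input replicate 2, at 1.27 ± 0.52 (edgeR adjusted p = 0.0599). It was also lost in a fit with no filter on low counts, at 1.255 ± 0.72 (edgeR adjusted p = 0.229). Without PD-L1 3'UTR replicate 1, miR-548o-3p stood at 1.24 ± 0.33 and miR-548k at -0.97 ± 0.23, both past the threshold. Input replicate 1 had the highest input level of miR-548o-3p. Without that library, miR-548o-3p stood at 1.80 ± 0.27 and miR-548k at -1.10 ± 0.22, again past the threshold.

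The MS2 control against the input gives the background of the method, and it moved 4 of the 5 members. miR-548k was lower by -3.95 ± 0.23 on the log2 scale (edgeR adjusted p = 3.62e-07), or 15.5-fold, and miR-548e-3p by -1.91 ± 0.45 (edgeR adjusted p = 0.00349). miR-548o-3p was higher by 1.6 ± 0.34 (edgeR adjusted p = 0.00179) and miR-548ao-3p by 1.30 ± 0.46 (edgeR adjusted p = 0.0259). Among all 408, 32.8% were called higher and 37% lower. miR-548j-5p differed by -0.04 ± 0.49 (edgeR adjusted p = 0.945), with an interval of 2 SE either side from -1.01 to 0.93. Library totals moved the median of all 408 from 0.02 to 0.65 and changed none of the 4 calls. Without input replicate 1, miR-548o-3p stood at 2.10 ± 0.28, past the threshold. The call of miR-548ao-3p was lost when input replicate 1, input replicate 2 or MS2 control replicate 1 was left out, with edgeR adjusted p of 0.0675, 0.0904 and 0.0729. It was also lost in a fit with no filter on low counts, at 1.06 ± 0.70 (edgeR adjusted p = 0.322). The 3 comparisons share libraries, so they are not independent of each other.

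**Figure D3:**
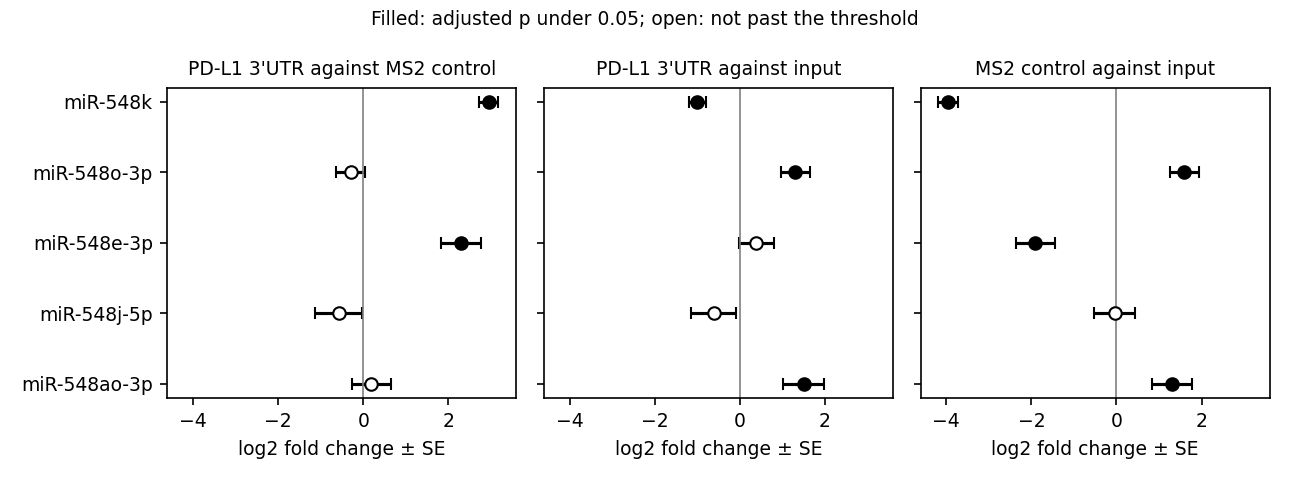
Log2 fold change (horizontal axis) with its SE for each of the 5 tested members (vertical axis) in the 3 comparisons. Filled points passed the threshold on the edgeR adjusted p and open points did not. miR-548k and miR-548e-3p are to the right on the PD-L1 3'UTR against the MS2 control, at 2.95 and 2.29, and to the left in the MS2 control against the input, at -3.95 and -1.91.

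Set side by side, the tested members had 3 patterns. miR-548k and miR-548e-3p were low on the MS2 bait and higher on the PD-L1 bait. miR-548o-3p and miR-548ao-3p were higher than the input on both baits, with no difference called between the baits. For miR-548ao-3p neither call against the input held in a fit with no filter on low counts. miR-548j-5p was called in no comparison. The first pair holds a 5p-type and a 3p name, and both names of the second pair are 3p. Whether the patterns relate to the arm was not tested. The median log2 fold change of the 5 members was 0.19 on the PD-L1 3'UTR against the MS2 control, 0.38 on the PD-L1 3'UTR against the input and -0.04 in the MS2 control against the input, against 0.02, 0.04 and 0.02 over all 408.

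The 10 best counted members outside the filter held 24 to 92 reads each. miR-548n had 13, 18 and 20 reads in the input, 0, 5 and 0 in the MS2 control and 8, 8 and 20 on the PD-L1 3'UTR. Pooled over a group this was 3.44, 1.08 and 11.5 RPM, with exact Poisson 95% intervals of 2.56 to 4.52, 0.350 to 2.52 and 8.03 to 15.9, and intervals here cover counting error only. In a fit with no filter on low counts it was higher on the PD-L1 3'UTR than in the MS2 control by 3.51 ± 0.87 on the log2 scale (edgeR adjusted p = 0.000455) and lower in the MS2 control, against the input, by -2.62 ± 0.86 (edgeR adjusted p = 0.0111). The first call held without any 1 of the 9 libraries, with 3.82 ± 0.89 in the absence of PD-L1 3'UTR replicate 1. Its size rested on the 5 reads of MS2 control replicate 2, without which the MS2 control is at 0 and the fitted values were 7.37 and, against the input, -6.48, which are no bounds. The second was lost without input replicate 2, at -2.45 ± 1.0 (edgeR adjusted p = 0.0642).

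miR-548l went the other way and was the clearest absence. It had 32, 13 and 27 reads in the input, 8, 3 and 4 in the MS2 control and 0 in each library on the PD-L1 3'UTR. A count of 0 in the pooled 3 libraries allows up to 0.955 RPM, taken as 3 counts over the group, and the upper end of the exact two-sided Poisson 95% interval is 1.175. Against the floor of 3 counts the pooled input value was 5.08-fold higher and that of the MS2 control 3.39-fold higher. These folds leave out the counting error of either value. The input stood at 4.85 RPM (exact Poisson 95% interval 3.80 to 6.11) and the MS2 control at 3.24 (1.81 to 5.34). The fit with no filter called it lower on the PD-L1 3'UTR in both comparisons (edgeR adjusted p = 0.00769 against the MS2 control and 7.32e-05 against the input), also without PD-L1 3'UTR replicate 1 (edgeR adjusted p = 0.0427 and 0.00127). Its sequence differs from that of miR-548k at an edit distance of 4, and miR-548k was recovered on the same bait.

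miR-548i had 24, 23 and 20 reads in the input, 2, 0 and 0 in the MS2 control and 3, 0 and 6 on the PD-L1 3'UTR. Pooled, the input stood at 4.51 RPM (exact Poisson 95% interval 3.50 to 5.73) and the MS2 control, with 2 reads, at 0.431 (0.0523 to 1.56). Against the input, it was lower in the MS2 control in the fit with no filter, by -4.07 ± 1.06 (edgeR adjusted p = 0.000812). Its reads were spread over 4 loci that cannot be told apart. Without MS2 control replicate 1, which held all its MS2 reads, it was also called higher on the PD-L1 3'UTR against the MS2 control (edgeR adjusted p = 0.0171). miR-548ar-3p had 17, 6 and 9 reads in the input, 1, 0 and 2 in the MS2 control and 5, 2 and 11 on the PD-L1 3'UTR, and was called higher on the PD-L1 3'UTR than in the MS2 control at 2.88 ± 1.12 (edgeR adjusted p = 0.0474). Pooled, the PD-L1 3'UTR stood at 5.73 RPM (3.40 to 9.06) and the MS2 control, with 3 reads, at 0.647 (0.134 to 1.89). That call was lost in 6 of the 9 fits that left out a library, with edgeR adjusted p of 0.0729 to 0.336. These were the fits without any 1 input library, without MS2 control replicate 1 or 2 and without PD-L1 3'UTR replicate 3. Without MS2 control replicate 3 it was called lower in the MS2 control against the input (edgeR adjusted p = 0.0356). miR-548s, with 16, 18 and 27 reads in the input, 0, 0 and 7 in the MS2 control and 5, 1 and 4 on the PD-L1 3'UTR, passed in no comparison. It was called lower in the MS2 control against the input without PD-L1 3'UTR replicate 1, at -2.08 ± 0.84 (edgeR adjusted p = 0.0499). Without MS2 control replicate 3, which held all its MS2 reads, it was called lower there too (edgeR adjusted p = 0.000141) and higher on the PD-L1 3'UTR against the MS2 control (edgeR adjusted p = 0.00919).

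In the fit with no filter, the 10 members had 2 calls higher and 1 lower on the PD-L1 3'UTR against the MS2 control, beside 11.9% higher and 9.67% lower among all 1500 names fitted. They had 0 higher and 1 lower on the PD-L1 3'UTR against the input, beside 10.7% and 13.4%, and 0 higher and 2 lower in the MS2 control against the input, beside 10.2% and 13.9%. The other 5 of the 10, miR-548a-3p, miR-548u, miR-548f-3p, miR-548al and miR-548ay-3p, were called in none. miR-548al owed 13 of its 25 reads to MS2 control replicate 2.

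**Figure D4:**
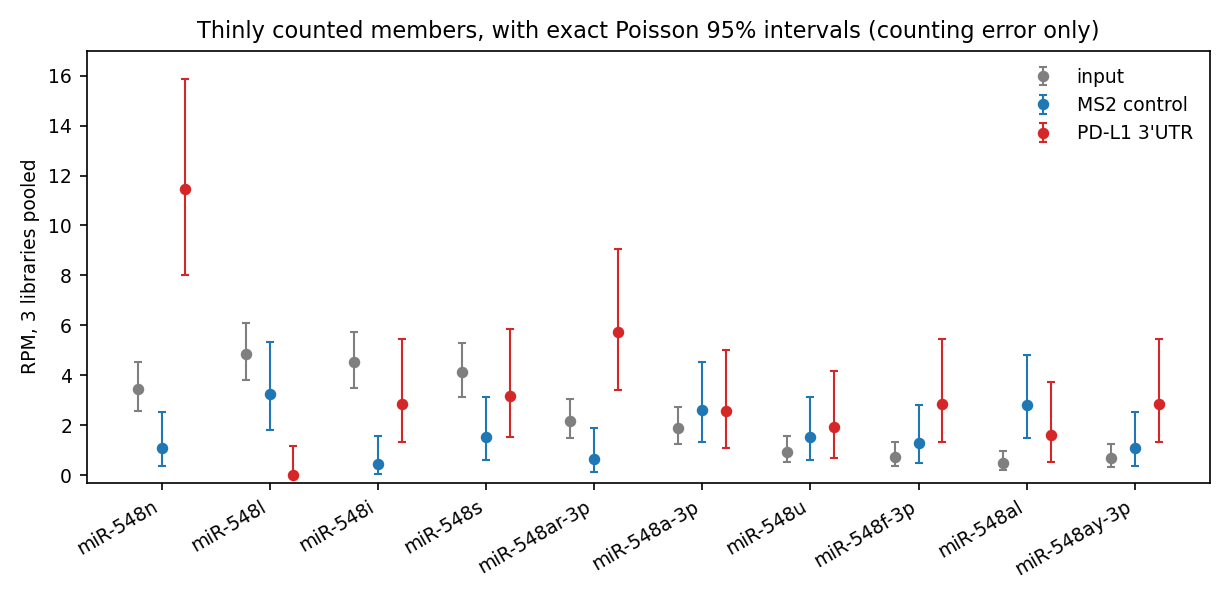
RPM pooled over the 3 libraries of a group (vertical axis) for the 10 best counted members that did not pass the filter, with exact Poisson 95% intervals for counting error. miR-548n is highest on the PD-L1 3'UTR at 11.5 and lowest in the MS2 control at 1.08. miR-548l is at 0 on the PD-L1 3'UTR.

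Relatives named outside the family were thinly counted. Hairpins of miR-570, miR-579 and miR-603 resemble those of miR-548. miR-579-5p had 21, 27 and 17 reads in the input, 0, 4 and 6 in the MS2 control and 10, 1 and 4 on the PD-L1 3'UTR. miR-579-3p had 6 reads, miR-570-5p had 2, and miR-570-3p and miR-603 had 0. No further name that shares a seed with a member reached 10 reads.

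The annotated 3'UTR of CD274 was searched for matches to the seeds of the counted members, to show where such letters lie in the kind of bait used. The search took the longest 3'UTR in GENCODE (CD274-201, 2704 bases, GRCh37 chr9:5467863-5470566, plus strand), on the transcribed strand only, since a miRNA pairs with the RNA. The bait's own sequence was not used here. Counted were the complement of bases 2 to 8, and the complement of bases 2 to 7 followed by an A. The matches of miR-548k, miR-548j-5p and miR-548l are given with the match in capitals, because these are close relatives with different values on this bait.
miR-548k, base 1672 (chr9:5469534-5469540): tctgctgtGTACTTTgctattt
miR-548k, base 977 (chr9:5468839-5468845): ctatatttTACTTTAagcaatt
miR-548j-5p, base 976 (chr9:5468838-5468845): gctatattTTACTTTAagcaatt
miR-548l, base 216 (chr9:5468078-5468084): agaccttgATACTTTcaaatgc

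The second line of miR-548k, the line of miR-548j-5p and a second match of miR-548l at base 977 are the same place. miR-548k had 2 matches in all, miR-548l 2 and miR-548j-5p 1, and miR-548o-3p, miR-548n and miR-548ar-3p had 0. miR-548s and miR-548am-3p had 1 each. miR-548e-3p and miR-548ao-3p could not be searched, since RefSeq held no sequence for them. Among 4558 genes whose 3'UTR is at least as long, the first 2704 bases held a match of either kind for miR-548k in 37.4%, for miR-548l in 42.0%, for miR-548j-5p in 47.2% and for miR-548o-3p in 46.1%. For miR-548s this share was 44.8% and for miR-548am-3p 62.0%. A match is a run of letters and not a measured site.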

How the data were processed

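Libraries of small RNA were made from ES-2 cells and read single-end, 3 each of input, MS2 control and PD-L1 3'UTR, 9 in all, grouped by sample title. The unit of the deposited table is the raw count of reads at each locus of a mature miRNA, which the authors made with cutadapt 1.18, Bowtie2 2.2.6 and featureCounts 1.6.3 on hg38 and miRBase, per the labels and the study's methods. Reads from near-identical members may be exchanged by the mapping. Loci of a name were summed here. Names were filtered with filterByExpr by group (408 kept), scaled by TMM and fitted in 1 model of 3 group means with edgeR 4.0.16 in R 4.3.3 (glmQLFit, glmQLFTest, two-sided), with Benjamini-Hochberg adjustment over all names and a threshold of 0.05. SE is the log2 fold change divided by the root of the F statistic. The script was tested on simulated data. DESeq2 1.42.0 was an alternative. Detection at equal depth is the exact hypergeometric expectation. All pairs of replicates differed beyond sampling noise, replicate 1 the most. By chi-square per degree of freedom, input replicate 1 differed from 2 and 3 by 177 and 243.8, against 12.5 between those. The MS2 control gave 141.3 and 166.5 against 39.0, and the PD-L1 3'UTR 108.8 and 183.3 against 19.5. Totals of 672824 to 5983577 reads set the precision, and 3 reads were taken as the floor for a count of 0.

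Named were all members past the filter, up to 10 further members with at least 10 reads, and relatives outside the family. The family, lists and tests were chosen with earlier results of these data known. Hairpins, host genes and 3'UTRs came from GENCODE on GRCh37 by gene name, mature sequences from RefSeq on GRCh38.p14.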

Additional observations from a re-analysis of the deposited data

How the results depend on the processing

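Counts of members called stayed within 1.5 times of the reported ones, with 1 exception on the PD-L1 3'UTR against the MS2 control. With no filter on low counts, 5 of 49 members fitted were called there (4 higher, 1 lower), in place of 2 of 5. Both earlier members were among them. Among all 1500 names fitted, 11.9% were called higher and 9.67% lower. In the other comparisons the members called changed with no filter, though their number did not move as far. The PD-L1 3'UTR against the input had 1 higher and 2 lower (all names 10.7% and 13.4%), 2 of them shared with the main fit. The MS2 control against the input had 1 higher and 4 lower (all names 10.2% and 13.9%), 3 of them shared. miR-548ao-3p was called in neither. Leaving out single libraries gave 2 to 2 members on the PD-L1 3'UTR against the MS2 control. It gave 2 to 3 on the PD-L1 3'UTR against the input and 3 to 4 in the MS2 control against the input. With the replicate number as a block, 2, 3 and 3 members were called in these comparisons, miR-548ao-3p being lost in the last (edgeR adjusted p = 0.0519). Same-numbered libraries had correlations of deviations from -0.17 to 0.13, and differently numbered ones from -0.12 to 0.19. With 3 replicates in a group, this check cannot show whether the numbers pair the libraries. DESeq2's Wald test called 2, 3 and 3. Of 237 recomputed fold changes of the 5 tested members, 220 kept direction and call, 10 lost the call (9 of miR-548ao-3p, 1 of miR-548k) and 7, all of uncalled miR-548j-5p, changed sign. For the 10 thinly counted members, leaving out each library in the fit with no filter was added after the data were seen. Of their 273 recomputed fold changes, 243 kept direction and call, 7 lost a call, 5 gained one and 18 uncalled ones changed sign. The cause was not tested.

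The family sum in the input was 390.4 by TMM, 377.0 by DESeq2 size factors and 111.9 RPM without miR-548k. In the MS2 control the scaled sums were 288.2 and 292.0, and on the PD-L1 3'UTR the sum without miR-548k was 305.0. Leaving out a library gave 292.3 to 298.1, 325.0 to 349.0 and 393.3 to 474.4. The 5p share of 11.0%, 4.17% and 3.93% became 70.0%, 11.0% and 37.3% by nearest sequence, 70.1%, 11.0% and 37.5% by hairpin place, and 27.7%, 32.7% and 15.3% without miR-548o-3p, the last pair of alternatives being added after the data were seen. Leaving out a library gave 9.61% to 13.2%, 2.59% to 4.99% and 3.47% to 4.48%. Of 49 members detected, 25 had 3 reads in a library, 19 had 10 in all and 28 had a read in every library of a group. Depth limits the members below 100 reads, 811 reads in all, and 1 or 2 reads move their levels.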
